A study of Arabidopsis thaliana with 12 samples.

Results

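PSAN, LHCB4.2 and PRK are nuclear genes of Arabidopsis thaliana whose proteins work in the chloroplast, in photosystem I, in the antenna of photosystem II and in the Calvin cycle. They were taken as the probe sets that the array annotation gives exactly 1 gene with 1 of these symbols, which left 3 of the 22746 non-control probe sets, 1 per gene, or 3 of the 13356 genes measured by a probe set that names no other gene. Expression was measured in hypocotyls, the seedling stems, of ecotype Col-0 on 12 Affymetrix arrays, 3 biological replicates in each of 4 groups. Plants were 7 days old (young) or 35 days old (mature), all grown in full-strength MS, and were either left without auxin or treated with it for 1 day. The series concerns how age alters the ability of hypocotyls to make callus, an unorganised mass of dividing cells. The labels name neither the auxin nor its dose, and give no count of plants per sample.

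In chloroplast thylakoids, light collected by antenna proteins drives electron transfer through photosystem II, the cytochrome b6f complex and photosystem I, and the ATP and NADPH made there feed the Calvin cycle. Each of these complexes combines subunits encoded in the plastid with subunits encoded in the nucleus and imported into the organelle. Hypocotyls of seedlings grown in light are green and carry chloroplasts in their cortex.

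The values are log2 expression values made by the authors with RMA (the robust multi-array average) and centred, row by row, on the median of the 12 arrays. A value of 0 is therefore the gene's own median, values of different genes cannot be ranked as levels, and it cannot be seen whether a low value lies at the background of the array. In bulk tissue fewer cells with chloroplasts and less of the transcript per cell cannot be told apart. For the same reason the labelled tissue could not be checked by the presence or absence of markers.

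The auxin groups followed their labels: GH3.3, an auxin-induced gene of auxin conjugation, lay between −5.27 and −2.09 on the 6 untreated arrays and between 2.09 and 2.51 on the 6 auxin arrays. Some arrays stood apart. The bioC spike-in, a control of bacterial origin, had values from −1.61 to −1.43 on arrays 1 and 2 of both untreated groups, from 0.48 to 0.70 on the third untreated arrays, and from −0.20 to 0.20 after auxin. A 25S ribosomal RNA control ran with the treatment, from −2.56 to −1.06 without auxin and from 1.06 to 2.50 with it. Their part in the results was not tested. Values that leave out the 4 arrays of low bioC signal are given beside the group comparisons of the 3 genes that use them. For other genes they are given in some places only. Each untreated group then holds 1 array, which is assumed to vary like the other groups. Calls and p-values of that fit rest on the spread within the auxin groups, so they are no test of the untreated ages.

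All 3 genes had the same order of groups: highest in young untreated hypocotyls, lower in mature untreated ones, and lowest after auxin, where both ages met. PSAN encodes the small subunit of photosystem I on the lumenal side of the thylakoid, where plastocyanin docks. It stood at 4.80, 4.93 and 4.75 in young untreated hypocotyls and at 2.73, 2.65 and 3.34 in mature untreated ones. After auxin it stood at −3.42, −3.29 and −3.51 in young and at −3.03, −3.75 and −2.65 in mature hypocotyls. Neither age had an auxin array near an untreated one, the untreated ages did not overlap, and the young auxin arrays lay within the range of the mature ones.

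LHCB4.2 encodes a form of CP29, a minor antenna protein that links the outer light-harvesting trimers to the core of photosystem II. Its values were 4.97, 4.99 and 4.65 in young and 3.05, 2.60 and 3.60 in mature untreated hypocotyls. With auxin they were −2.81, −2.60 and −3.12 in young and −3.06, −2.94 and −3.08 in mature hypocotyls. The untreated ages were again separate, and after auxin the mature values lay inside the young range.

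PRK encodes phosphoribulokinase, the Calvin cycle enzyme that regenerates the CO2 acceptor ribulose bisphosphate. Its untreated values were 4.29, 4.54 and 4.43 in young and 2.42, 2.3 and 2.96 in mature hypocotyls. Those with auxin were −2.3, −2.60 and −2.74 in young and −2.46, −2.72 and −2.61 in mature hypocotyls. As for the other genes, the only groups to overlap were those with auxin.

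**Figure D1:**
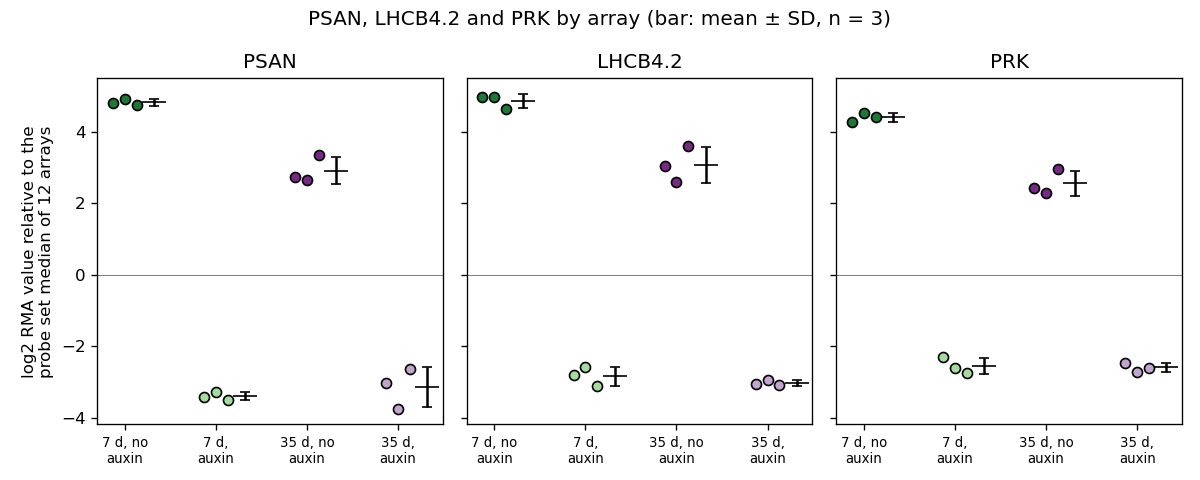
Log2 RMA value relative to the probe set's median (vertical axis) of PSAN, LHCB4.2 and PRK in each of the 12 arrays (points, replicates 1 to 3 from left to right), with the mean ± SD of each group (bar, n = 3). In each panel the untreated young arrays are highest, the untreated mature arrays lie below them, and the auxin arrays of both ages share one range below −2.

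The spread between replicates was uneven. The SD of PSAN was 0.09 and 0.11 in the young groups without and with auxin, but 0.38 and 0.56 in the mature groups (n = 3 each). LHCB4.2 had its largest SD in mature untreated hypocotyls (0.50) and its smallest in mature hypocotyls with auxin (0.08). In mature untreated hypocotyls array 3, the array of that group without a low bioC signal, was the highest for all 3 genes. The pooled SD within groups was 0.34 for PSAN, 0.30 for LHCB4.2 and 0.23 for PRK, against a median of 0.13 over all probe sets. Deviations from the group means correlated across the 12 arrays with r = 0.43 (PSAN and LHCB4.2), 0.60 (PSAN and PRK) and 0.67 (LHCB4.2 and PRK), given as a description of genes measured on the same arrays.

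The first comparison asked what auxin changes in young hypocotyls. With auxin PSAN was 302-fold lower (log2 fold change −8.24 ± 0.23 SE, n = 3 per group), LHCB4.2 209-fold lower (−7.71 ± 0.20) and PRK 125-fold lower (−6.97 ± 0.16). Counted from the lowest log2 fold change of the 22746 probe sets, they held places 2, 4 and 13. These genes were known from earlier results of these data as large falls in this contrast, so their values are a description, with no test. Over all probe sets limma called 26.4% lower and 32.7% higher (Benjamini-Hochberg adjusted p under 0.05), and nothing about the 3 genes is read from these shares. Without the 4 arrays of low bioC signal the log2 fold changes were −8.16, −7.49 and −6.98.

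In mature hypocotyls, on arrays that the young contrast does not share, the same genes fell with auxin. PSAN fell 66.5-fold (−6.06 ± 0.23 SE, n = 3 per group, limma adjusted p = 4.7e-11), LHCB4.2 69.0-fold (−6.11 ± 0.20, adjusted p = 1.5e-11) and PRK 35.7-fold (−5.16 ± 0.16, adjusted p = 9.1e-12). Their places from the lowest fold change were 12, 11 and 42. Against these 3 of 3 falls, limma called 28.1% of all probe sets lower and 31.8% higher. Without the 4 arrays of low bioC signal the falls came to 89.8-fold, 98.6-fold and 47.0-fold.

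The fall was not of one size among the probe sets of the 3 genes. How near each lies to the background of the array cannot be seen, so the sizes compared are those of probe sets. Over both ages PSAN fell by more than PRK, with a mean difference between their log2 fold changes of −1.08 ± 0.16 (SE), and LHCB4.2 fell by more than PRK, with −0.85 ± 0.13. In a two-sided exact permutation test that exchanged the auxin labels within each age (n = 3 per group), both differences gave p = 0.005, the smallest that the 400 relabellings allow, and 0.00625 after adjustment over the 5 pairs of genes compared. The test includes the young contrast in which the genes were known as large falls, so it is no independent test; in mature hypocotyls alone the differences were −0.90 and −0.95. Between PSAN and LHCB4.2 the mean difference was −0.24 ± 0.20 (exact p = 0.29, n = 3 per group, adjusted 0.29). That pair differed by −0.53 in young and by 0.05 in mature hypocotyls, the latter where PSAN varied most between replicates.

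Before any treatment, the study compared mature with young hypocotyls. The values of all 3 genes were lower in mature hypocotyls. PSAN was 3.78-fold lower (−1.92 ± 0.23 SE, n = 3 per group, limma adjusted p = 8.9e-06), LHCB4.2 3.45-fold lower (−1.79 ± 0.20, adjusted p = 5.4e-06) and PRK 3.62-fold lower (−1.86 ± 0.16, adjusted p = 3.4e-07). Of all probe sets 22.9% were called lower with age in this comparison and 22.7% higher. The comparison uses the young untreated arrays whose high values entered the fall by which the genes were known, so these p-values are not independent of their choice. Without the 4 arrays of low bioC signal the 3 genes were 2.66-fold, 2.07-fold and 2.77-fold lower in mature hypocotyls, with 1 array per age and so no test. For LHCB4.2 that is a change of over 1.5 times in the fold.

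With auxin no age difference was called in any of the 3 genes. PSAN differed by 0.26 on the log2 scale (mature minus young, 95% interval −0.23 to 0.75, limma adjusted p = 0.48), LHCB4.2 by −0.19 (−0.62 to 0.25, adjusted p = 0.58) and PRK by −0.04 (−0.39 to 0.30, adjusted p = 0.89). In this comparison limma called 13% of all probe sets lower and 14.2% higher with age. The intervals leave room for age differences of up to 0.75 in PSAN, but not for the gaps seen without auxin. For PSAN the result rests on array 2 of the mature group with auxin, its lowest value at −3.75: without that array PSAN was higher in mature hypocotyls (0.57, limma adjusted p = 0.040).

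The last comparison, the interaction, asked whether the auxin response itself differs with age. The fall was smaller in mature hypocotyls by 2.18 ± 0.32 (SE) on the log2 scale for PSAN (limma adjusted p = 1.3e-04), by 1.60 ± 0.29 for LHCB4.2 (adjusted p = 6.0e-04) and by 1.81 ± 0.22 for PRK (adjusted p = 2.9e-05). Of all probe sets 17.5% were called in this direction and 17.5% in the other. The interaction subtracts the young contrast in which the genes were known as large falls, so its p-values are not independent of their choice either. By construction this difference is the age gap with auxin minus the age gap without, and for these genes nearly all of it lay in the untreated groups. Whether the auxin values of both ages lie at the background of the array cannot be seen, so the size of either fall may be limited by it. Without the 4 arrays of low bioC signal the interaction was 1.67, 0.87 and 1.43, for LHCB4.2 a fold of 1.82 in place of 3.03. Against a minimum fold of 2 it was no longer called for LHCB4.2 (limma treat, adjusted p = 0.40).

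**Figure D2:**
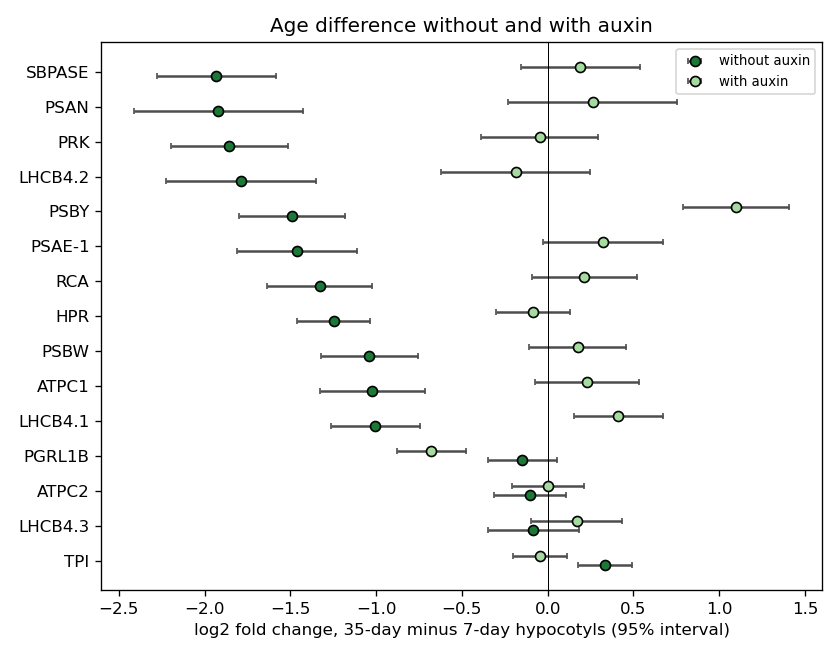
Log2 fold change of mature (35-day) minus young (7-day) hypocotyls (horizontal axis, limma estimate with 95% interval, n = 3 per group) without auxin (dark points) and with auxin (light points), for PSAN, LHCB4.2, PRK and the 12 other listed nuclear genes. Without auxin the 3 genes lie between −1.92 and −1.79, and with auxin their intervals include 0. Of the other genes, PSBY (1.1) and LHCB4.1 (0.41) were called higher and PGRL1B (−0.68) lower in mature hypocotyls after auxin.

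LHCB4.2 belongs to a family of 3 CP29 genes, all measured separately, and these moved by very different amounts. LHCB4.1 stood at 3.18, 3.12 and 2.97 in young and 2.02, 1.91 and 2.33 in mature untreated hypocotyls, and with auxin at −2.14, −2.48 and −2.50 in young and −1.91, −2.01 and −1.97 in mature ones. It fell 44.1-fold with auxin in young (−5.46 ± 0.12 SE) and 16.5-fold in mature hypocotyls (−4.05 ± 0.12; limma adjusted p = 3.4e-13 and 7.3e-12). Its groups with auxin were apart: LHCB4.1 was higher in mature than in young hypocotyls by 0.41 (95% interval 0.15 to 0.67, limma adjusted p = 0.020).

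LHCB4.3, which encodes the CP29 form also known as LHCB8, stood at 0.62, 0.87 and 0.87 in young and 0.75, 0.70 and 0.65 in mature untreated hypocotyls. With auxin it stood at −0.87, −0.94 and −1.26 in young and −0.62, −1.0 and −0.94 in mature ones. The fall was 3.50-fold in young (−1.81 ± 0.12) and 2.94-fold in mature hypocotyls (−1.55 ± 0.12), separate from the untreated arrays at both ages (limma adjusted p = 1.3e-08 and 6.7e-08). The ages overlapped both without auxin (−0.08, 95% interval −0.35 to 0.18, limma adjusted p = 0.63) and with it, and the interaction was not called (0.25, −0.12 to 0.63, adjusted p = 0.30). The sign of the age difference without auxin turned (0.30, limma adjusted p = 0.020) when arrays were scaled to PEX4. This is a ubiquitin-conjugating enzyme gene often used as a reference. PEX4 was itself lower with age without auxin (−0.39, limma adjusted p = 0.0010), and the scaling subtracts this change from every gene.

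Over both ages the log2 fold change of LHCB4.2 minus that of LHCB4.1 was −2.15 ± 0.13 (SE), and minus that of LHCB4.3 it was −5.23 ± 0.19. Both gave an exact permutation p = 0.005 (n = 3 per group, adjusted 0.00625), but LHCB4.2 was known beforehand as a large fall, so this is no independent test. Whether these probe sets also bind transcripts of the other CP29 genes was not tested. It also cannot be seen how near each lies to the background of the array, so the sizes compared are those of probe sets.

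**Figure D3:**
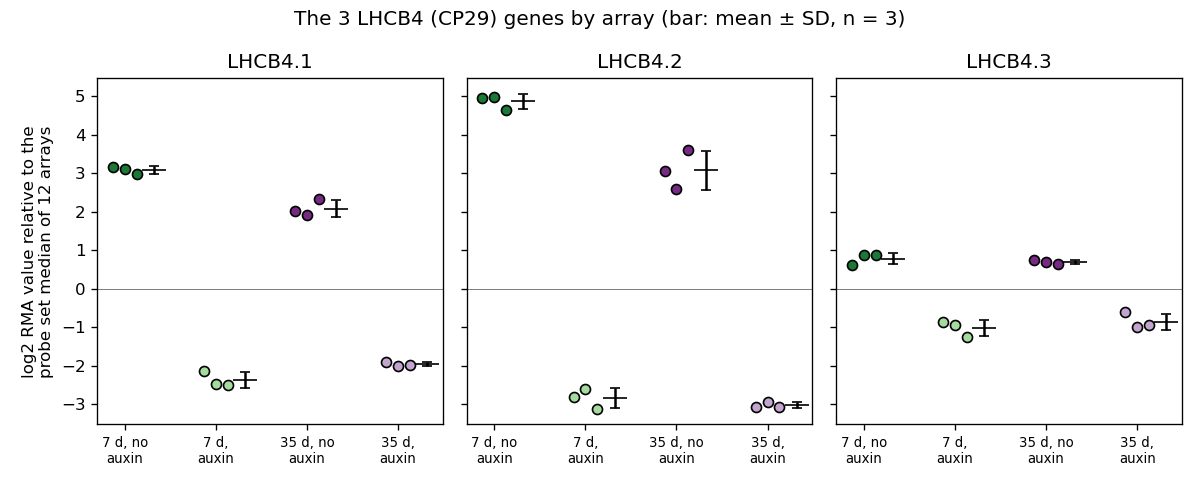
Log2 RMA value relative to the probe set's median (vertical axis) of the CP29 genes LHCB4.1, LHCB4.2 and LHCB4.3 in each of the 12 arrays (points), with the mean ± SD of each group (bar, n = 3). The distance between untreated and auxin arrays is largest for LHCB4.2 and smallest for LHCB4.3, whose untreated ages share one range.

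Other nuclear genes of the photosynthetic apparatus were taken from lists of photosystem subunits, antennae, electron carriers, ATP synthase, Calvin cycle and photorespiration. Besides these 3, 12 of the listed genes could be measured on their own. Of the 12, 11 fell and 1 rose with auxin at either age, with a median log2 fold change of −5.83 in young and −3.94 in mature hypocotyls, against 0.02 and 0.06 over all probe sets. Without auxin 8 were lower and 1 higher in mature hypocotyls (median −1.03, against −0.03 over all probe sets). With auxin 1 was lower and 2 were higher (median 0.18), counts near the shares of all probe sets (13% and 14.2%). In the interaction 8 were called higher and 2 lower (median 1.23), against 17.5% of all probe sets each way. For the auxin contrasts the shares of all probe sets called lower were 26.4% (young) and 28.1% (mature). Those called higher were 32.7% and 31.8%. For age without auxin, 22.9% of all probe sets were called lower and 22.7% higher. With the 4 arrays of low bioC signal left out, each untreated group holds 1 array, so only effect sizes are given. The medians of the single lists then ran from −6.68 to −2.36 with auxin in young hypocotyls and from −5.77 to −2.90 in mature ones. With age without auxin they ran from −1.10 to −0.23, where TPI (0.29) and PGRL1B (0.18) lay above 0. TPI also rose with auxin (0.52 in young and 0.18 in mature hypocotyls).

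In the photosystems, PSAE-1, a stromal subunit of photosystem I, fell 84.2-fold in young (−6.40 ± 0.16) and 24.4-fold in mature hypocotyls (−4.61 ± 0.16). The small photosystem II subunit genes PSBW (−6.08 ± 0.13 and −4.87 ± 0.13) and PSBY (−5.70 ± 0.14 and −3.11 ± 0.14) fell as well. PSBY departed from the 3 genes after auxin, where it was 2.14-fold higher in mature than in young hypocotyls (1.1 ± 0.14, limma adjusted p = 5.0e-05).

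Among electron carriers and ATP synthase, ATPC1, the gamma subunit of the plastid ATP synthase, fell 64.8-fold in young (−6.02 ± 0.14) and 27.2-fold in mature hypocotyls (−4.77 ± 0.14). Its paralogue ATPC2 changed by only −0.40 ± 0.10 and −0.30 ± 0.10, and neither fall was called with arrays scaled to PEX4, where the young value turned to 0.02. PGRL1B, which acts in cyclic electron flow around photosystem I, went the other way with age: it fell by 2.51 ± 0.09 in young and by 3.04 ± 0.09 in mature hypocotyls, and its interaction was −0.53 ± 0.13 (limma adjusted p = 0.0065). The age gap without auxin in PGRL1B was −0.15 ± 0.09 (limma adjusted p = 0.23), and its sign turned (0.24) with arrays scaled to PEX4. With auxin PGRL1B was lower in mature hypocotyls (−0.68, limma adjusted p = 7.8e-05), unlike the 3 genes, which had no called gap there.

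In the Calvin cycle, RCA, which encodes rubisco activase, fell 109-fold in young (−6.77 ± 0.14) and 37.5-fold in mature hypocotyls (−5.23 ± 0.14). SBPASE, sedoheptulose bisphosphatase, fell 62.4-fold (−5.96 ± 0.16) and 14.3-fold (−3.84 ± 0.16), and its age gap without auxin was −1.93 ± 0.16. TPI, the gene that rose (0.57 ± 0.07 in young and 0.19 ± 0.07 in mature hypocotyls), encodes the cytosolic triosephosphate isomerase of glycolysis, which the list took in by its symbol. Its rise in mature hypocotyls was not called with array medians set equal (limma adjusted p = 0.13). Without the 4 arrays of low bioC signal it was 0.18, with 1 untreated array. HPR, a peroxisomal hydroxypyruvate reductase of photorespiration, fell 110-fold (−6.78 ± 0.10) and 48.9-fold (−5.61 ± 0.10).

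**Figure D4:**
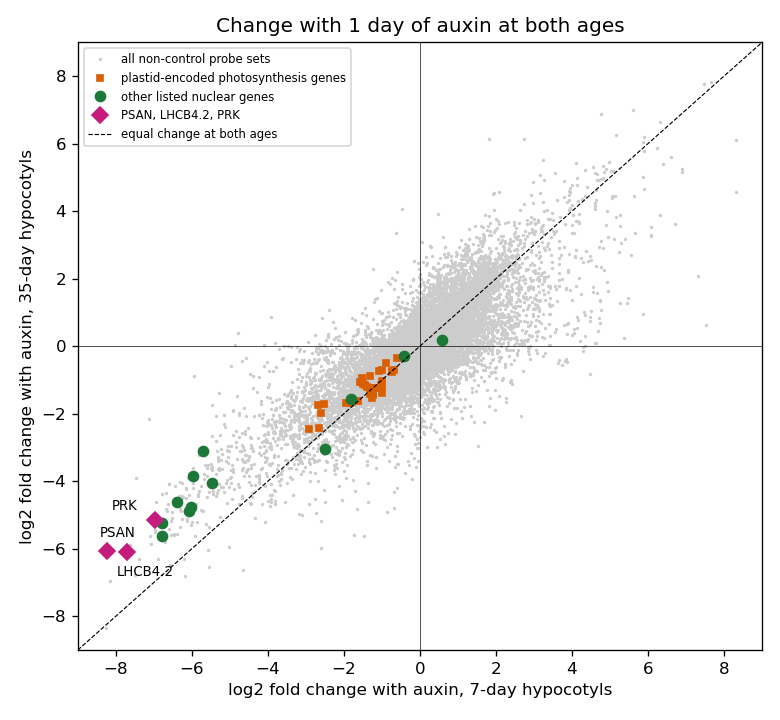
Log2 fold change with 1 day of auxin in young (horizontal axis) and mature hypocotyls (vertical axis) for all 22746 non-control probe sets (grey), 35 plastid-encoded photosynthesis genes (squares), 12 listed nuclear genes (circles) and PSAN, LHCB4.2 and PRK (diamonds); the dashed line marks equal change. The 3 genes lie at the lower left and above the line, having fallen by more in young hypocotyls, and the plastid-encoded genes moved less.

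The plastid-encoded partners of these proteins fell too. Of 35 such genes 34 fell in young and 31 in mature hypocotyls and 0 rose, with medians of −1.27 and −1.20. Over all probe sets 26.4% and 28.1% were called lower with auxin. With age 22.9% were called lower and 22.7% higher without auxin, and 13% and 14.2% with it. In the interaction 17.5% were called each way. psbB, the CP47 core antenna of photosystem II, had the largest fall in young hypocotyls (−2.93 ± 0.36), followed by psbD, its D2 reaction centre protein (−2.68 ± 0.18). petD (−0.59 ± 0.12) and petN (−0.39 ± 0.12) of the cytochrome b6f complex changed least. With arrays scaled to PEX4 neither was called, and the sign of petN turned (0.03). That scaling left 27 falls in young and 28 in mature hypocotyls, with medians of −0.85 and −1.01. With auxin 13 of the 35 (5 when scaled to PEX4) were lower and 0 higher in mature hypocotyls, where PSAN, LHCB4.2 and PRK showed no called gap, and without auxin 20 were lower and 1, rbcL, was higher (8 and 0 with the arrays of low bioC signal left out, 6 and 1 when scaled to PEX4). rbcL was singled out after its value was seen. The interaction was called higher in 3 of the 35 and lower in 0 (0 and 0 with these arrays left out, 0 and 1 when scaled to PEX4).

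Genes that make pigment or assemble the photosystems fell over a wide range. All 7 measured genes of chlorophyll and tetrapyrrole synthesis fell with auxin at both ages, with medians of −2.55 in young and −1.12 in mature hypocotyls. Of all probe sets 26.4% and 28.1% were called lower with auxin, and 22.9% with age without auxin. With arrays scaled to PEX4, 5 of the 7 were called lower in mature hypocotyls, and HEMB1 (−0.14) and GSA1 (−0.15) were not. CHLM and PORB, enzymes specific to the chlorophyll branch, changed by −5.50 ± 0.13 and −5.17 ± 0.17 in young hypocotyls. HEMB1 and GSA1, which act earlier in the shared tetrapyrrole pathway, changed by −1.25 ± 0.08 and −0.70 ± 0.08. All 7 were lower in mature hypocotyls without auxin (median −0.97). Without the 4 arrays of low bioC signal, with 1 array per age and so no test, the median was −0.84. The 4 measured assembly genes fell at both ages. In young hypocotyls PAM68, LPA2 and LPA1 of photosystem II changed by −2.70 ± 0.16, −2.16 ± 0.08 and −1.21 ± 0.12, and HCF101, an iron-sulphur cluster protein needed for photosystem I, by −1.70 ± 0.12. HYH, a bZIP transcription factor of light signalling and the 1 measured gene among the listed regulators, fell by 1.97 ± 0.30 in young and by 0.79 ± 0.30 in mature hypocotyls (limma adjusted p = 4.8e-05 and 0.034). The mature fall was not called with arrays scaled to PEX4 (−0.60, adjusted p = 0.063).

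A list of 10 genes of thylakoid shape, cyclic electron flow and stromal redox control had 8 falls and 2 rises in young and 7 falls and 2 rises in mature hypocotyls. Of all probe sets 26.4% and 28.1% were called lower in these comparisons, and 32.7% and 31.8% higher. PSB27, a photosystem II assembly and repair factor (−6.62 ± 0.11 in young and −4.69 ± 0.11 in mature hypocotyls), and CURT1C, a protein that bends thylakoid membranes (−6.31 ± 0.15 and −4.01 ± 0.15), had the lowest log2 fold changes of the list in young hypocotyls. CURT1D of the same family rose at both ages (1.23 ± 0.12 and 1.29 ± 0.12), as did TAAC, annotated as a thylakoid ATP/ADP carrier (2.35 ± 0.16 and 1.37 ± 0.16).

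The genes whose pattern was most like that of the 3 were searched for among the 13512 other probe sets with 1 gene, by Pearson's r over the 12 arrays, given without p because the arrays fall into groups. For PSAN they were PSAE-1 (r = 0.9977), RCA (0.9976), AT5G51110 (0.9975), AT3G20680 (0.9974) and PRK (0.9972). LHCB4.2 was followed most closely by AT5G13770 (0.9985), PRK (0.9980), RCA (0.9979), AT1G05140 (0.9975) and AT3G11560 (0.9975). For PRK the nearest were AT1G05140 (0.9987), PSB27 (0.9981), LHCB4.2 (0.9980), AT2G35260 (0.9978) and AT5G58950 (0.9977). LHCB4.1 ranked 31 (r = 0.9950) and LHCB4.3 453 (r = 0.9712) in likeness to LHCB4.2. Their root mean square differences from LHCB4.2 over the 12 arrays were 1.19 and 2.77 on the log2 scale. By the root mean square difference of the log2 values, which also counts the size of the change, the nearest to PSAN was LHCB4.2 (0.41), the nearest to LHCB4.2 was PSAN (0.41), and the nearest to PRK was RCA (0.23).

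The 3 genes lie on different chromosomes, 5 (PSAN), 3 (LHCB4.2) and 1 (PRK), by the RefSeq annotation of assembly TAIR10.1. Of the adjacent protein-coding genes, 1 beside PSAN, 1 beside LHCB4.2 and 0 beside PRK could be measured on their own. AT5G64030, beside PSAN, rose with auxin by 0.55 ± 0.09 in young and 0.63 ± 0.09 in mature hypocotyls. AT3G08930, beside LHCB4.2, fell by 0.60 ± 0.08 in young and by 0.42 ± 0.08 in mature hypocotyls, and its young fall was not called with arrays scaled to PEX4 (−0.18, limma adjusted p = 0.078). Neither neighbour had a change near the size of the gene beside it; both were chosen for their position.

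Few listed markers of other cells could be measured. With auxin, all 3 of dividing cells and all 3 of lateral root primordia and callus rose at both ages. They rose by 0.34 to 1.23 and 4.59 to 6.33 in young and by 2.36 to 2.93 and 4.23 to 6.63 in mature hypocotyls. Over all probe sets limma called 32.7% higher with auxin in young and 31.8% in mature hypocotyls. Whether the marker genes rose with more such cells or responded to auxin themselves was not tested. The phloem sucrose transporter gene SWEET11 fell by 5.59 ± 0.19 in young and by 3.60 ± 0.19 in mature hypocotyls, and without auxin it was lower with age (−2.25 ± 0.19). FAMA, of guard cells, changed by −0.40 ± 0.11 and −0.67 ± 0.11 with auxin, and the first of these turned in sign (0.02) with arrays scaled to PEX4. None of the listed genes of xylem, epidermis or endodermis is measured by a probe set of its own. The part of a changing mix of cells in the fall of PSAN, LHCB4.2 and PRK was not tested.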

How the data were processed

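The deposited values are log2 RMA values: per the submitters' processing notes the authors used RMA, with no version given. The log base is read as log2 because RMA gives log2 values. Each of the 22810 rows has a median of 0 over the 12 arrays, a centring found in the values. The 64 control probe sets were left out of the tests. Of the other 22746, 13513 have 1 gene in the array annotation, 503 several and 8730 none listed. Dim probe sets could not be filtered out. Array number, 3 per group, limits the precision, and no sample was dropped or imputed.

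One linear model with the 4 group means was fitted to all non-control probe sets and 12 arrays with limma (version 3.58.1, R version 4.3.3; lmFit, contrasts.fit, eBayes; 8 residual degrees of freedom). Tests were two-sided, adjusted by Benjamini-Hochberg over the 22746 probe sets and called under 0.05. SE is that of the contrast. The fit was tested on simulated data with known changes. Lists were matched by symbol, then by unambiguous synonym; 2 wrong matches (HPR1 to THO1, FDH to formate dehydrogenase) were removed. The members and lists were chosen with earlier results of these data known, and the list of thylakoid shape, cyclic flow and redox after the annotation was seen. Named genes are the 3 members, the CP29 genes, every measured gene of a list of up to 6, otherwise the 2 lowest and 2 highest by auxin in young hypocotyls, and the 5 most correlated genes; FAMA is annotated as FMA, MCM7 as PRL, CURT1C as AT1G52220 and CURT1D as AT4G38100. The markers and the neighbours were added to these.

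Whether replicate numbers pair arrays was checked by correlating same-numbered deviations from the mean of the group. Only between the auxin groups did all 3 pairs pass 0.1 (0.25, 0.16 and 0.12). Array 1 of the young untreated group reached 0.22 with that of the mature untreated group and 0.20 with that of the young auxin group. These weak correlations do not settle whether the numbers pair arrays. Alternatives were the replicate block, array medians set equal, scaling to PEX4 (the only measured reference gene), array weights, robust spread, probe sets of above-median range, a minimum fold of 2, the contrast's groups alone, 1 value per gene, leaving out each array, and leaving out the 4 arrays of low bioC signal. A planned promoter motif search was not run.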

Additional observations from a re-analysis of the deposited data

Results flagged for a closer look

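The auxin response differed between ages by the interaction test of limma (adjusted p under 0.05) in all 3 genes, by 2.18 (PSAN), 1.60 (LHCB4.2) and 1.81 (PRK) on the log2 scale, mature minus young, a test that is not independent of their choice. It also differed in LHCB4.1 (1.42), PSAE-1 (1.78), PSBW (1.21), PSBY (2.59), ATPC1 (1.25), RCA (1.54), SBPASE (2.12) and HPR (1.16), all of which fell by less in mature hypocotyls. PGRL1B (−0.53) fell by more in mature hypocotyls, and TPI (−0.38) and TAAC (−0.98) rose by less there. Further differences were those of CHLM (2.02), PORB (1.01), HEMB1 (0.92), GSA1 (0.36), psbD (0.94), LPA2 (0.78), PAM68 (1.17), HCF101 (0.97), HYH (1.17), PSB27 (1.93) and CURT1C (2.3). For none of these genes can it be seen whether the auxin values lie at the background of the array. Without the 4 arrays of low bioC signal the differences were −0.34 (TPI), 0.84 (PORB), 0.31 (GSA1) and 0.58 (psbD). Each untreated group then holds 1 array, so this is no test. Scaling to PEX4 ended the calls of GSA1 (limma adjusted p = 0.48), psbD (0.057) and HYH (0.076), and equal array medians that of HYH (0.051).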

How the results depend on the processing

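Of 327 values of PSAN, LHCB4.2 and PRK under the alternatives, 325 kept the side of the threshold of the main value, and no called value turned in sign. The exceptions were LHCB4.2 in the interaction (1.60, not called against a minimum fold of 2) and PSAN in the age comparison with auxin, which was 0.016 to 0.57 when single arrays were left out and called (0.57) without array 2 of the mature auxin group. Uncalled values of the age comparison with auxin did turn in sign, with PSAN reaching −0.066 and PRK running from −0.14 to 0.11. With the replicate block all values were equal by balance and no call of these genes changed (PSAN in the interaction 2.18, adjusted p = 1.9e-04). PEX4 itself changed by −0.42 ± 0.08 with auxin in young hypocotyls and by −0.39 with age without auxin. Scaling to it moved the median of all probe sets with auxin in young hypocotyls from 0.02 to 0.45. Of 218 counts of listed nuclear genes 193 stayed within 1.5 times; most of the others were counts of 1 or 2 genes. With the minimum fold of 2 the counts were 3 higher and 0 lower in the interaction, 0 and 0 with age and auxin, 0 higher and 2 lower with age without auxin, and 0 higher with auxin at both ages. Among probe sets of above-median range 0 were higher with auxin at either age and with age without auxin, and 1 was lower in the interaction. The fit without the 4 arrays of low bioC signal entered both totals. It holds 1 array in each untreated group, so its counts are not read. Scaling to PEX4 gave 3 higher with age without auxin. Array medians set equal and the contrast's groups alone each gave 0 higher with auxin in mature hypocotyls. Leaving out single arrays gave 1 to 3 higher with age and auxin, and 0 to 1 higher with auxin in mature hypocotyls. The cause was not tested. The planned promoter motif search was not run, and the contrast's groups alone are all 4 groups for the interaction. Centring hides signal over background, so a floor under the auxin values cannot be seen.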
